A study of Mus musculus with 28 samples.

Results

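MHC class I molecules carry peptides made inside a cell to its surface, where T cells and NK cells read them. A polymorphic heavy chain pairs with the constant light chain β2-microglobulin. The peptides are cut by the proteasome, whose catalytic subunits can be exchanged for immunoproteasome subunits, and are carried into the endoplasmic reticulum by the TAP transporter. Interferons raise most of these genes together, through factors that include IRF1 and the class I transactivator NLRC5, and embryonic and pluripotent cells are known for little class I on their surface. Here 10 genes of this pathway were followed among the 50600 genes of the table. They were taken by name as the heavy chain genes H2-K1, H2-D1, H2-Q4, H2-Q6 and H2-T23, the light chain gene B2m, the transporter genes Tap1 and Tap2, and the immunoproteasome genes Psmb8 and Psmb9. All 10 were in the table once and all 10 passed the filter on low values, which asked for a mean of 1 or more across the 28 libraries. The genes were selected on earlier results of these data, in which interferon-related genes differed between the arms on days 3, 5 and 7 of induction. Values for those contrasts are therefore a description, and no p-value is given for them.

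Bulk mRNA-seq was available for 28 libraries, 2 for each of 14 groups. The cells were mouse embryonic fibroblasts (MEFs) with the labelled genotype WT. By the study's methods they came from embryos of male Oct4-GFP (OG2) reporter mice of CBA/CaJ x C57BL/6J origin and 129 females, so that more than 1 set of heavy chain alleles can be present while the reference genome holds the C57BL/6J alleles. The 2 fibroblast groups were untreated MEFs and MEFs given the p38 MAP kinase inhibitor SB203580. The other 12 groups were cells on day 1, 3, 5 or 7 of OKS induction, in which retroviruses deliver Oct4, Klf4 and Sox2 and the medium is iCD1. They belonged to a control arm (named DMSO in the study), an arm with the inhibitor during induction (p38i) or an arm with the inhibitor before induction (pre-p38i). All 24 induced libraries thus share the 3 retroviral factors, and the cultures were mixed and not sorted. Each library holds whole-number values with a total of 991287 to 992537, which are read as TPM, the share of a gene's transcripts in the library after division by transcript length, so that levels of different genes can be set side by side. The depth behind them is unknown. Fibroblast markers were high in the MEFs, with Col1a1 at 4164 and 3867 and Pdgfrb at 121 and 121. No library was a copy of its replicate.

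Of the 10 genes, 9 lie on chromosome 17 of GRCm38, inside the H2 complex, and B2m lies on chromosome 2 (122147686 to 122153083). Positions are those of the deposited table. Psmb9 (34181988 to 34187764, minus strand), Tap1 (34187553 to 34197225), Psmb8 (34197721 to 34201454) and Tap2 (34203527 to 34216321, all plus strand) form 1 block of 34334 bases. Psmb9 and Tap1 overlap by 212 bases at their starts, on opposite strands, and H2-T23 (36029773 to 36032855, minus strand) lies wholly within the span of the antisense gene A930015D03Rik, which stood between 2 and 9 in all libraries. Since no source used here says whether strand was kept, reads from such partners cannot be told apart. The heavy chain genes are H2-K1 (33996017 to 34000333, minus strand), H2-D1 (35262730 to 35267499), H2-Q4 (35379617 to 35385290) and H2-Q6 (35424850 to 35430055, all plus strand).

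Promoter sequence is shown for the heavy and light chain genes, because a compact set of elements in these promoters is where interferon and NLRC5-dependent control of class I is known to act. The sequences are RefSeq promoter windows of GRCm38.p6, cut to the stretch that holds the matches and written on the strand of the gene. The capitals mark matches, on either strand, to an NF-κB type element (GGG, any 2 bases, TT, any 1 base, CC), the interferon-stimulated response element (ISRE: GAAA, any 2 bases, GAAA), the class I form of it (GAANNGAAA), the half-site of a cyclic AMP response element (TGACG) and the CCAAT box (CCAAT), which reads ATTGG in reverse. In H2-Q4 a pair of NF-κB type matches overlap. The stretches of H2-D1 and H2-T23 lie inside the gene spans of the deposited table, downstream of the table's gene start, since RefSeq places the starts of these genes further downstream.
H2-K1, chr17:34000351-34000466, minus strand: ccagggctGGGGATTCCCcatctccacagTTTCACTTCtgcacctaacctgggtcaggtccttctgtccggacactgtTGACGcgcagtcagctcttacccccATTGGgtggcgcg
H2-D1, chr17:35262915-35263030, plus strand: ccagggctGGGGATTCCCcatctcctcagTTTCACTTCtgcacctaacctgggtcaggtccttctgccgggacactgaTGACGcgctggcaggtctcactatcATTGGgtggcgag
H2-Q4, chr17:35379435-35379550, plus strand: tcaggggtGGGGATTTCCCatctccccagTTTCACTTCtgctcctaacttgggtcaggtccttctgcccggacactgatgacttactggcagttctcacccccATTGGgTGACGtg
H2-Q6, chr17:35424669-35424783, plus strand: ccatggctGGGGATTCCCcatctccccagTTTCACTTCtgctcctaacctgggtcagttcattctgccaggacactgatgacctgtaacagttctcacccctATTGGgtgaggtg
H2-T23, chr17:36032741-36032833, minus strand: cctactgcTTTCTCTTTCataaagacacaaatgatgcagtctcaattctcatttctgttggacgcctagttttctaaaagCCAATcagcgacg
B2m, chr2:122147540-122147646, plus strand: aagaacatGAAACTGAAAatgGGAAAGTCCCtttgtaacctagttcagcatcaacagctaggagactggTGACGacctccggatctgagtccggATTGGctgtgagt

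A promoter window of 300 bases was found for 9 of the 10 genes, all but Tap2, and the same letters were counted in 32851 windows of all genes. The NF-κB type element was in 5 of the 9 windows (H2-K1, H2-D1, H2-Q4, H2-Q6 and B2m) and in 4.79% of all windows. The class I form of the ISRE was in 4 (H2-K1, H2-D1, H2-Q4 and H2-Q6), against 7.52% of all windows. The ISRE itself was in 2 (H2-T23 and B2m), against 3.44%. The CRE half-site was in 6 (20.8% of all windows) and the CCAAT box in 8 (37.4%). The interferon gamma activated site TTCNNNGAA was in 1 of the 9, the window of Psmb8, and in 8.3% of all. The 4 heavy chain promoters with the NF-κB type element share the ISRE form just downstream of it. Further downstream they differ, with the CRE half-site before the CCAAT box in H2-K1 and H2-D1, after it in H2-Q4 and not matched in H2-Q6. The H2-T23 stretch has an ISRE and a CCAAT box and no match to the NF-κB type element.

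The heavy chain transcripts resemble each other, with 83.5% (H2-D1 and H2-T23) to 92.4% (H2-Q4 and H2-Q6) identity between pairs over the aligned bases. Cut into windows of 75 bases, 1.55% of the H2-K1 transcript, 6.9% of H2-D1, 7.91% of H2-Q4, 13.1% of H2-T23 and 17.9% of H2-Q6 were found unchanged in another gene. For H2-Q6 the largest share, 9.8%, was with H2-Q7. Reads of these windows can be split among genes, so the levels of H2-Q6 and H2-T23 are the least certain. No window of B2m, Tap1, Tap2, Psmb8 or Psmb9 was shared with another gene.

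**Figure D1:**
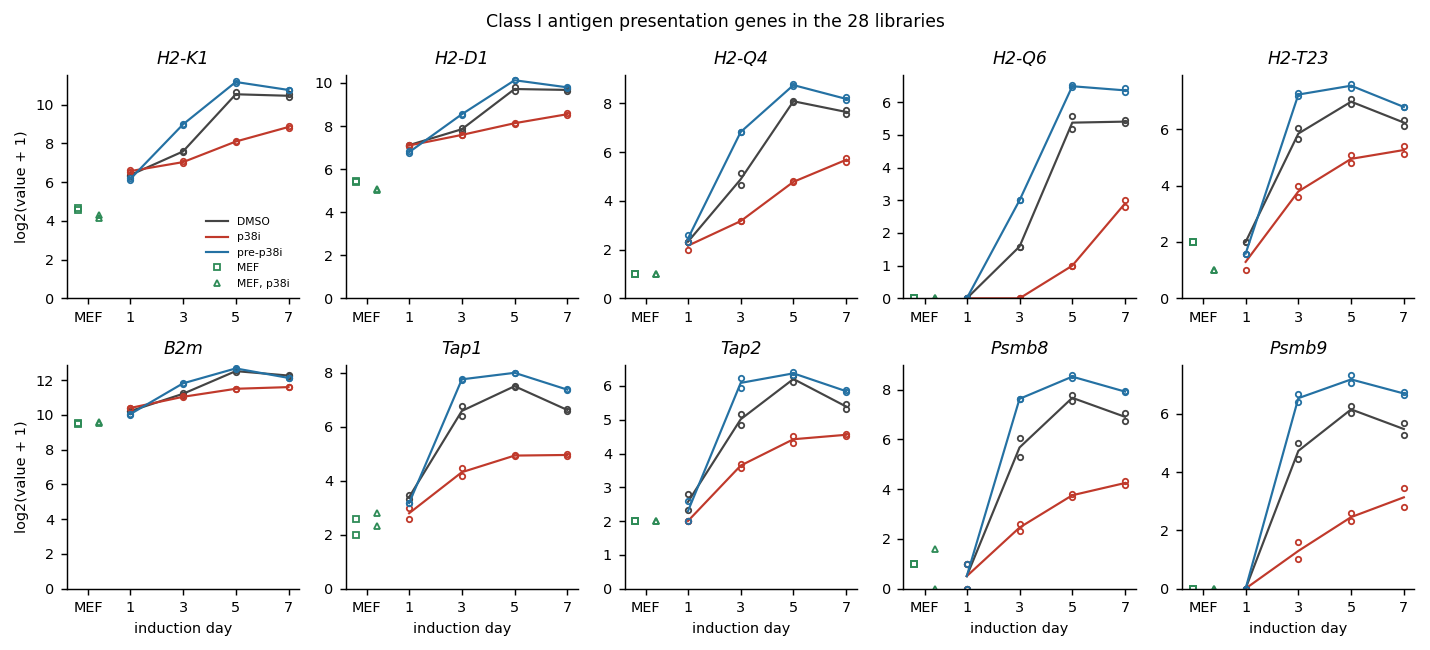
Level of each of the 10 genes on the log2(value + 1) scale, with 1 panel per gene. Points are single libraries (2 per group), lines join the group means of the DMSO, p38i and pre-p38i arms over induction days 1, 3, 5 and 7, and squares and triangles at the left are untreated and p38i-treated MEFs. From day 3 on, the means of the p38i arm lie below and those of the pre-p38i arm above the DMSO arm in every panel, except that B2m in pre-p38i lies below DMSO on day 7.

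In untreated MEFs the pathway was carried by its light chain. B2m stood at 750 and 722, the classical heavy chain genes H2-D1 at 41 and 42 and H2-K1 at 24 and 23, and each of the other 7 genes at 5 or less. Psmb9 and H2-Q6 were listed at 0 in both libraries. The sum of the 5 heavy chain genes was 0.0938 ± 0.0025 (SD, n = 2) times the level of B2m.

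MEFs given p38i had slightly less of the classical heavy chains. H2-K1 stood at 19 and 17 and H2-D1 at 32 and 33 in these cells, below both untreated libraries. H2-K1 fell by 0.37 on the log2 scale (SE 0.072, adjusted p = 0.00109, limma) and H2-D1 fell by 0.34 (SE 0.057, adjusted p = 0.00026, limma). H2-T23 fell by 1.00 (SE 0.17, adjusted p = 0.000277, limma), from 3 and 3 to 1 and 1, levels at which rounding to whole numbers matters. B2m, at 775 and 750, differed by 0.05 (SE 0.044, adjusted p = 0.489, limma). In all, 3 of the 10 genes were called lower and 0 higher, against 8.15% of the 13230 genes tested called lower and 9.73% higher. The H2-K1 call was lost in a fit of these groups alone (adjusted p = 0.125, limma). The macrophage marker list, 16 genes whose sum was 371 and 351 in untreated and 244 and 248 in p38i-treated MEFs, moved in the same direction, and its part in these differences was not tested. In bulk samples fewer cells of a type and less RNA per cell cannot be told apart.

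In the control arm the pathway was induced in steps that differed between its parts. From MEF to day 1, H2-K1 (80 and 83 on day 1), H2-D1 (140 and 135) and B2m (1183 and 1195) rose. H2-K1 rose by 1.75 on the log2 scale (SE 0.072, adjusted p = 4.7e-14, limma), H2-D1 by 1.70 (SE 0.057, adjusted p = 1.98e-15) and B2m by 0.69 (SE 0.044, adjusted p = 4.39e-11). H2-Q4 (1.32), Tap1 (1.10) and Tap2 (0.56) were also called higher, at day 1 levels of 4 to 10, while Psmb8, Psmb9, H2-Q6 and H2-T23 were still at 3 or less. The 6 genes called higher of 10 stand against 36.6% of all genes tested. The Tap2 call rests on the first DMSO library of day 1, without which its difference was 0.32 (adjusted p = 0.157, limma). It was also lost with quantile normalization (0.14, adjusted p = 0.481, limma), with the replicate number as a block (adjusted p = 0.0525) and in a fit of these groups alone (adjusted p = 0.145), and that fit also lost Tap1 (adjusted p = 0.0672).

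From day 1 to day 3 all 10 genes rose, against 20.5% of all genes tested called higher. The immunoproteasome genes moved most. Psmb8, the subunit that takes the place of Psmb5, went from 1 and 0 to 38 and 66, a difference of 5.18 (SE 0.42, adjusted p = 5e-09, limma). Psmb9, which takes the place of Psmb6, went from 0 and 0 to 21 and 31, a difference of 4.73 (SE 0.22, adjusted p = 1.56e-12). H2-T23, which encodes the non-classical Qa-1 heavy chain that inhibitory NK receptors read, followed with 3 and 3 against 49 and 65 (3.84, SE 0.17, adjusted p = 5.42e-13, limma). Tap1 went from 10 and 9 to 83 and 109 (3.20, SE 0.17, adjusted p = 1.31e-11, limma). The classical heavy chains rose less in this step, H2-K1 by 1.22 and H2-D1 by 0.74.

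Between days 3 and 5 the largest differences were those of the heavy chain genes H2-Q6, H2-Q4 and H2-K1. All 10 genes rose again, against 13.8% of all genes tested. H2-Q6 went from 2 and 2 to 47 and 35 (3.79, SE 0.15, adjusted p = 1.11e-12, limma), H2-Q4 from 24 and 34 to 274 and 268 (3.20, SE 0.13, adjusted p = 1.11e-12) and H2-K1 from 185 and 197 to 1591 and 1383 (2.95, SE 0.072, adjusted p = 8.53e-16). The other heavy chains rose less, H2-D1 by 1.87 and H2-T23 by 1.13, and Psmb8 by 2.00 lay above both. In this step Tap1 rose by only 0.92 (SE 0.17, adjusted p = 0.000845, limma), to 179 and 182. On day 3, Tap1 had thus reached 53.2% of its highest mean in the control arm and H2-T23 45.6%, while H2-K1 had reached 12.8% and H2-Q6 4.82%. A fit of these groups alone called 5 of the 10 genes, and no longer H2-T23, Tap1, Tap2, Psmb8 and Psmb9 (adjusted p from 0.0787 to 0.112, limma), and Psmb8 was also lost with a pseudocount of 0.1.

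**Figure D2:**
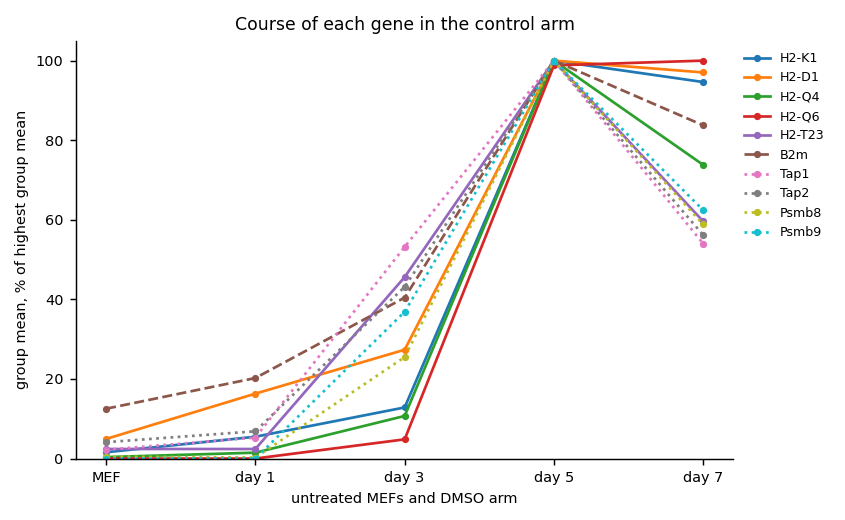
Group mean of each gene in untreated MEFs and on days 1, 3, 5 and 7 of the DMSO arm, as a percentage of its highest mean among these groups (heavy chains solid, B2m dashed, transporter and immunoproteasome genes dotted). On day 3 the genes spread from 4.82% (H2-Q6) to 53.2% (Tap1), and on day 7 from 54.0% (Tap1) to 100% (H2-Q6); under quantile normalization the day 5 to day 7 difference of B2m turned to a higher level on day 7.

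From day 5 to day 7 of the control arm 6 genes fell, against 16.4% of all genes tested called lower, and none of the 10 was called higher. Tap1 fell by 0.88 (SE 0.17, adjusted p = 0.000804, limma) to 101 and 94, Tap2 by 0.82 (SE 0.17, adjusted p = 0.00108) to 43 and 39, and H2-T23 by 0.74 (SE 0.17, adjusted p = 0.00275) to 69 and 80. Psmb9 (-0.67), H2-Q4 (-0.44) and B2m (-0.26) were called with smaller differences, and for B2m the direction turned under quantile normalization (0.11, adjusted p = 0.147, limma). H2-K1 (1476 and 1338 on day 7), H2-D1 (844 and 792) and H2-Q6 (40 and 43) overlapped their day 5 values, with differences of -0.08, -0.04 and 0.03. Psmb8, at 222 and 186 on day 5 and 134 and 106 on day 7, had a difference of -0.76 with a wide error (SE 0.42, adjusted p = 0.193, limma). The calls of Psmb9 and H2-Q4 were each lost when the first or second DMSO library of day 5, or the second of day 7, was left out (adjusted p from 0.0553 to 0.239, limma). A fit of these groups alone kept 2 of the 6.

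Macrophage markers changed along the control arm too. On day 1 their sum was 319 and 308, by day 3 it was 553 and 551, by day 5 it was 649 and 663, and it was 421 and 432 at day 7. The defining macrophage genes Ptprc (at most 2 in any induced library) and Csf1r (at most 4 in the DMSO arm) were low throughout, and Lyz2 made up 248 and 275 of the sum on day 3. Of the T and NK cell list, 11 of 12 genes, Cd3e and Ncr1 among them, were at 0 or at most 1, and the remaining gene, Cd3g, reached 52 and 50 on day 5. The endothelial genes Pecam1 and Cdh5 never exceeded 2. Another gene of that list, Tek, the receptor of angiopoietins, was at 0 and 0 in MEFs. In DMSO it was at 18 and 17, 45 and 49, 57 and 60, and 57 and 58 on days 1, 3, 5 and 7. Tek was called higher in each step up to day 5. In p38i Tek was called lower than DMSO on day 1 (11 and 13, a difference of -0.51) and on day 3 (37 and 33, -0.42). It was then at 61 and 56 on day 5 and 67 and 61 on day 7, on these days not below the control, unlike the class I genes. In pre-p38i Tek was called higher than DMSO on day 3 only (58 and 57, 0.29). Kdr, the other tested gene of the list, went from 2 and 2 in MEFs to 6 and 6 on day 1. It was then called lower on day 3, at 3 and 4 (-0.65, adjusted p = 0.0336, limma).

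Markers of the starting and the final cells also changed over these steps. Of the 9 fibroblast markers, 7, 6, 7 and 8 were called lower in the steps to days 1, 3, 5 and 7, against 18.9%, 24%, 5.57% and 16.4% of all genes tested. Col1a1, a fibrillar collagen gene, went from 4164 and 3867 in MEFs to 290 and 319 on day 7. All 5 tested pluripotency markers were called higher from day 5 to 7, against 10.3% of all genes tested, and Nanog was then at 12 and 16. This was the step in which no class I gene was called higher. In the steps to days 1, 3 and 5, 1, 2 and 2 of the 5 were called higher, against 36.6%, 20.5% and 13.8% of all genes tested. The part of the cells these 5 lists stand for in the induction of class I was not tested.

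On day 1 of induction the inhibitor arms were close to the control. With p38i, B2m was higher than in DMSO (1353 and 1343 against 1183 and 1195, a difference of 0.18, SE 0.044, adjusted p = 0.00693, limma). In contrast, Tap1 at 7 and 5 against 10 and 9 (-0.60, SE 0.17, adjusted p = 0.0218, limma), Tap2 at 3 and 3 against 6 and 4 (-0.56, SE 0.17, adjusted p = 0.0238) and H2-T23 at 1 and 2 against 3 and 3 (-0.71, SE 0.17, adjusted p = 0.00624) were called lower. This is 1 gene higher and 3 lower of 10, against 3.47% and 12.6% of all genes tested. All 4 calls were lost on leaving out 1 library. Without the first DMSO library the adjusted p of B2m was 0.0572, that of Tap1 0.153 and that of Tap2 0.337, and without the first p38i library that of H2-T23 was 0.147 (limma).

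In the pre-p38i arm on day 1, 2 of 10 genes were called lower and 0 higher, against 6.24% and 5.4% of all genes tested. H2-D1 stood at 106 and 113 against 140 and 135 (-0.33, SE 0.057, adjusted p = 0.000855, limma) and B2m at 1081 and 1030 against 1183 and 1195 (-0.17, SE 0.044, adjusted p = 0.014). The B2m call was lost on leaving out either DMSO library or the second pre-p38i library (adjusted p from 0.0584 to 0.142, limma), and both calls were lost in a fit of these groups alone (adjusted p = 0.110 for H2-D1 and 0.151 for B2m). The direct test of p38i against pre-p38i on day 1 called 3 genes higher and 0 lower in p38i, against 8.25% and 19.9% of all genes tested, namely H2-K1 (90 and 98 against 73 and 68), H2-D1 (133 and 139 against 106 and 113) and B2m. The differences were 0.41 (SE 0.072, adjusted p = 0.00023, limma), 0.31 (SE 0.057, adjusted p = 0.000386) and 0.35 (SE 0.044, adjusted p = 4.85e-06). In a fit of these groups alone the call of B2m was kept and those of H2-K1 (adjusted p = 0.0733) and H2-D1 (adjusted p = 0.0677) were lost. On day 1 the pre-p38i arm, which later had the highest class I levels, was not above the control in any called gene.

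**Figure D3:**
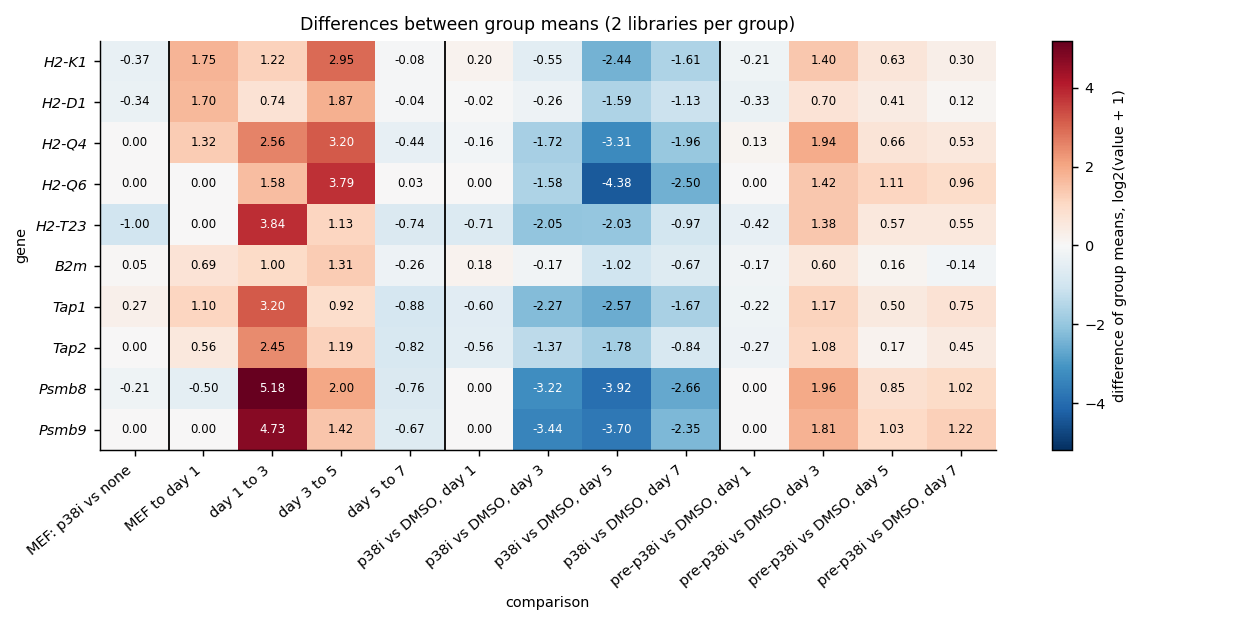
Difference of group means on the log2(value + 1) scale for the 10 genes (rows) in 13 comparisons (columns), from the limma fit of all 28 libraries, with red for higher and blue for lower. The columns from day 1 to 3 and from day 3 to 5 are positive for all 10 genes, and those of p38i and pre-p38i against DMSO on days 3, 5 and 7, which are descriptions without p-values, have opposite signs for every gene except B2m on day 7; the B2m value of the day 5 to 7 step turns positive (0.11) under quantile normalization.

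From day 3 on, the mean of every gene in the p38i arm lay below the control mean. On day 3 the values ranged from 88.7% of the DMSO mean for B2m to 5.77% for Psmb9, leaving aside H2-Q6, listed at 0 and 0 against 2 and 2. Psmb8 stood at 4 and 5 against 38 and 66, Tap1 at 21 and 17 against 83 and 109, and H2-T23 at 11 and 15 against 49 and 65. H2-K1, at 127 and 133 against 185 and 197, and H2-D1, at 194 and 189 against 219 and 242, were closer to the control. The genes with the largest rises between days 1 and 3 of the control arm, Psmb8 and Psmb9, were also those with the largest differences on day 3 (-3.22, SE 0.42, and -3.44, SE 0.22). Both comparisons contain the DMSO libraries of day 3, so this match is in part built in.

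On day 5 the gap on the log2(value + 1) scale was wider for 4 of the 5 heavy chains, all but H2-T23. H2-T23 was at 22.8% of the control mean on day 3 and 24.0% on day 5. For H2-Q6 the floor of the values limits the gap of day 3, with 0 and 0 in p38i against 2 and 2 in DMSO. As a percentage of the control mean it did not widen, at 2.44% on day 5. H2-Q6 stood at 1 and 1 in p38i against 47 and 35 in DMSO (-4.38, SE 0.15), H2-Q4 at 27 and 26 against 274 and 268 (-3.31, SE 0.13) and H2-K1 at 277 and 268 against 1591 and 1383 (-2.44, SE 0.072). H2-D1 was at 33.2% and B2m, at 2930 and 2875 against 6056 and 5699, at 49.4% of the control mean. Psmb8 (13 and 12 against 222 and 186) stayed at 6.13% and Psmb9 (4 and 5 against 77 and 64) at 6.38%. By day 7 the distance was smaller for each of the 10 genes, with percentages from 15.0% (Psmb8) to 63.0% (B2m). H2-K1 then stood at 483 and 437 against 1476 and 1338, and Tap2 at 22 and 23 against 43 and 39.

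All 10 genes were called lower in p38i on each of these days, where 16.2%, 18.7% and 17.6% of all genes tested were called lower on days 3, 5 and 7. The medians over the 10 genes were -1.65, -2.51 and -1.64. Since these contrasts were known when the genes were chosen, the counts support nothing further. In a fit of the groups of day 3 alone, 5 of the 10 passed. The sum of macrophage markers in p38i was between 277 and 328 in the libraries of these days, below the DMSO libraries (421 to 663). This sum thus moved in the same direction as the class I genes. Of its 14 tested genes 10, 11 and 7 were called lower and 0, 1 and 1 higher. The gene called higher was Cd68, by 0.41 on day 5 and 0.56 on day 7. Lyz2 stood at 135 and 113 on day 7, against 98 and 109 in DMSO.

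The pre-p38i arm had the opposite pattern, strongest on day 3. Psmb8 stood at 197 and 198 against 38 and 66 in DMSO (1.96, SE 0.42), Psmb9 at 83 and 102 against 21 and 31 (1.81, SE 0.22), and H2-Q4 at 113 and 112 against 24 and 34 (1.94, SE 0.13). H2-K1 was at 519 and 490 against 185 and 197 (1.40, SE 0.072), and B2m at 3716 and 3500 against 2307 and 2447 (0.60, SE 0.044). The 10 means were between 151.8% (B2m) and 387.9% (H2-Q4) of the control. The day 3 levels of Tap1 (212 and 219), H2-T23 (143 and 155) and Psmb9 were above those that the control arm had on any day.

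On day 5 the mean of pre-p38i was still above that of DMSO for each of the 10 genes, at 111.4% (B2m) to 217.1% (H2-Q6) of the control mean. H2-K1 reached 2250 and 2356 and B2m 6312 and 6781. The smallest differences were those of B2m (0.16, SE 0.044) and Tap2 (80 and 84 against 69 and 77; 0.17, SE 0.17). On day 7, 9 genes were above the control and B2m was below it (4506 and 4453 against 4911 and 4933; -0.14, SE 0.044). Psmb9 (99 and 107 against 50 and 38), Psmb8 (248 and 236 against 134 and 106) and H2-Q6 (78 and 85 against 40 and 43) had the highest percentages of the control, at 234.1%, 201.7% and 196.4%.

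In the pre-p38i arm 10, 8 and 7 of the 10 genes were called higher on days 3, 5 and 7, and B2m was called lower on day 7. Of all genes tested, 13.8%, 14.3% and 15.4% were called higher on these days, and 14.5% lower on day 7. These are descriptions like those of p38i. Only 5 genes were called on day 5 without the second DMSO or the second pre-p38i library, and 5 on day 7 without any one of its 4 libraries. The B2m call of day 7 was lost in each of those 4 fits and with quantile normalization (-0.10). Fits of the groups of 1 day alone called 3, 2 and 5 genes. Macrophage markers moved the other way here, with sums of 251 and 237, 206 and 193, and 131 and 123 on days 3, 5 and 7, and with 11, 14 and 14 of 14 tested genes called lower than DMSO, against 6.87%, 11.3% and 14.5% of all genes tested. Of the 9 fibroblast markers 6, 7 and 9 were called lower on these days, while Tek was at 59 and 63 on day 7. The macrophage gene Lyz2 was at 9 and 7 on day 7, against 98 and 109 in the control. In the p38i arm, where the class I genes were lower, 7, 6 and 1 of the 9 fibroblast markers were called lower than DMSO on days 3, 5 and 7. Of all genes tested, 16.2%, 18.7% and 17.6% were called lower there. In p38i 1, 1 and 2 of the 9 were called higher, against 690, 1041 and 2186 of the 13230 genes tested.

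Ordered by mean over the 14 groups, each of the 10 genes was highest in pre-p38i on day 5. The share of all genes that were highest there was not counted. Since differences between the arms were known when the genes were chosen, the order is a description. The second place went to pre-p38i on day 7 for 6 genes, to pre-p38i on day 3 for Tap1 and H2-T23 and to DMSO on day 5 for B2m and Tap2, and for H2-D1, Tap2 and Psmb9 the second group overlapped the third. Over all 130 pairs of neighbouring groups, the libraries overlapped in 40. Those of H2-K1 and B2m overlapped in 1 of 13 pairs each and those of H2-Q6, at 0 in many groups, in 7. The sum of the 10 genes was 813 in MEFs, 9172.5 in DMSO on day 5, 3579 in p38i on day 5 and 11521 in pre-p38i on day 5 (means of 2 libraries).

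The balance between the parts of the pathway shifted along with its level. The heavy chain sum per B2m went from 0.190 ± 0.0025 (SD, n = 2) on day 1 of DMSO to 0.470 ± 0.020 on day 5 and 0.516 ± 0.030 on day 7. It stayed at 0.210 ± 0.0035 in p38i on day 5 and reached 0.630 ± 0.014 in pre-p38i on day 5 and 0.692 ± 0.016 on day 7. H2-K1 was 0.567 ± 0.027 times H2-D1 in MEFs and 1.76 ± 0.033 times in DMSO on day 5, so that the order of the classical heavy chain genes was exchanged. In p38i the ratio was 0.975 ± 0.040 on day 5, and in pre-p38i 2.06 ± 0.046. The immunoproteasome gene Psmb8 was at 0.0032 ± 0.00012 times its constitutive counterpart Psmb5 in MEFs. This ratio was 0.808 ± 0.051 in DMSO on day 5, 0.0556 ± 0.0045 in p38i and 1.285 ± 0.067 in pre-p38i, while Psmb5 itself was between 221 and 330 in all 28 libraries.

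**Figure D4:**
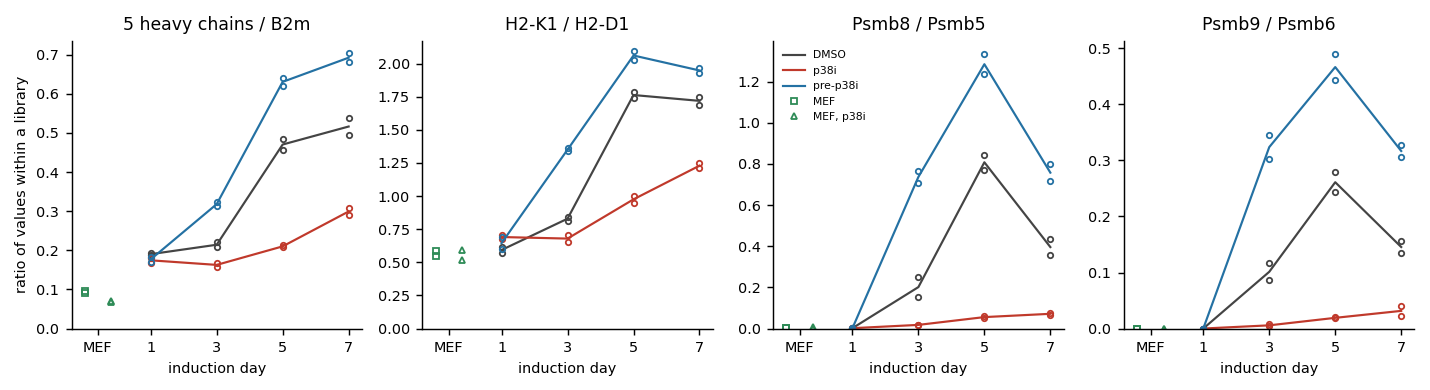
Ratios of values within a library for the sum of 5 heavy chain genes to B2m, H2-K1 to H2-D1, Psmb8 to Psmb5 and Psmb9 to Psmb6. Points are libraries and lines join group means over induction days, with MEFs at the left. On day 5 the Psmb8 to Psmb5 ratio was 0.808 in DMSO, 0.0556 in p38i and 1.285 in pre-p38i.

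The shared sequence of the heavy chains was addressed by adding up 17 listed class I heavy chain genes of the H2 complex. This sum consists mostly of H2-K1 and H2-D1, and it does not follow H2-T23 or H2-Q6. It rose by 1.42, 1.23 and 2.31 in the control steps from MEF to day 5 (SE 0.056, adjusted p = 2.48e-14, 9.94e-13 and 4.26e-16, limma), and its difference from day 5 to day 7 was -0.12 (adjusted p = 0.114). Against DMSO it was -0.60, -2.13 and -1.43 in p38i and 1.13, 0.59 and 0.31 in pre-p38i on days 3, 5 and 7. For p38i-treated MEFs it fell by 0.18 (SE 0.056, adjusted p = 0.0298, limma).

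Other genes of class I presentation were counted from fixed lists. Of 11 tested genes among 15 further class I and class I-like heavy chain genes, 7 rose and 0 fell in each of the control steps from day 1 to 3 and from day 3 to 5, in which 20.5% and 13.8% of all genes tested were called higher and 24% and 5.57% lower. H2-T22, the highest of them, went from 27 and 31 on day 1 to 177 and 155 on day 5. H2-Q7, which shares sequence with H2-Q6, went from 6 and 6 on day 3 to 67 and 59 on day 5 and was at 7 and 4 in p38i and 150 and 137 in pre-p38i on day 5. Among 9 genes of peptide loading and trimming, 6 rose from day 1 to 3 and 0 fell, against the same shares of 20.5% and 24%. Tapbp encodes tapasin, which holds TAP next to the heavy chain, and stood at 64 and 53 on day 1 and 184 and 202 on day 3. Erap1, the aminopeptidase that trims peptides, went from 7 and 6 to 27 and 33. The general chaperone gene Calr had its highest level in untreated MEFs (1534 and 1522), against 796 and 757 on day 1.

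The immunoproteasome subunit gene Psmb10 and the proteasome activator genes Psme1 and Psme2 rose in each control step up to day 5 and fell from day 5 to 7 (3 of 3 called each time). All 3 were called lower in p38i on days 3, 5 and 7. Psmb10, for example, was at 129 and 140 in DMSO, 41 and 46 in p38i and 166 and 183 in pre-p38i on day 5. The constitutive genes Psmb5, Psmb6 and Psmb7 fell together from day 1 to 3, with a median of -0.37, and none was called in the steps from MEF to day 1 or from day 3 to 5.

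Of 14 transcription factor genes that act on class I promoters, 6 rose and 1 fell from day 1 to 3, against 20.5% and 24% of all genes tested. Irf7, an amplifier of type I interferon responses, went from 6 and 7 to 88 and 103 (3.68, adjusted p = 5.8e-13, limma), and Nlrc5 from 1 and 1 to 8 and 11. In p38i on day 3 Nlrc5 was at 2 and 0 and Irf1 at 11 and 11 against 45 and 71, and in pre-p38i they were at 29 and 32 and at 139 and 163. In that arm Nlrc5 and Irf1 were at their highest on day 3, 1 time point before the 10 class I genes. This order was not seen for Irf7, which was there at 149 and 153 on day 3 and 158 and 159 on day 5. In DMSO both Nlrc5 (19 and 18) and Irf1 (86 and 86) were highest on day 5, as were most of the class I genes. What the order reflects was not tested. Of the interferon genes only Ifnb1 and Ifng were looked up, and Ifnb1 was listed at 0 in all 28 libraries and Ifng at 2 or less. Ciita, the transactivator of class II genes, was listed at 0 throughout, while the class II chaperone gene Cd74 reached 45 and 49 in pre-p38i on day 7.

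**Figure D5:**
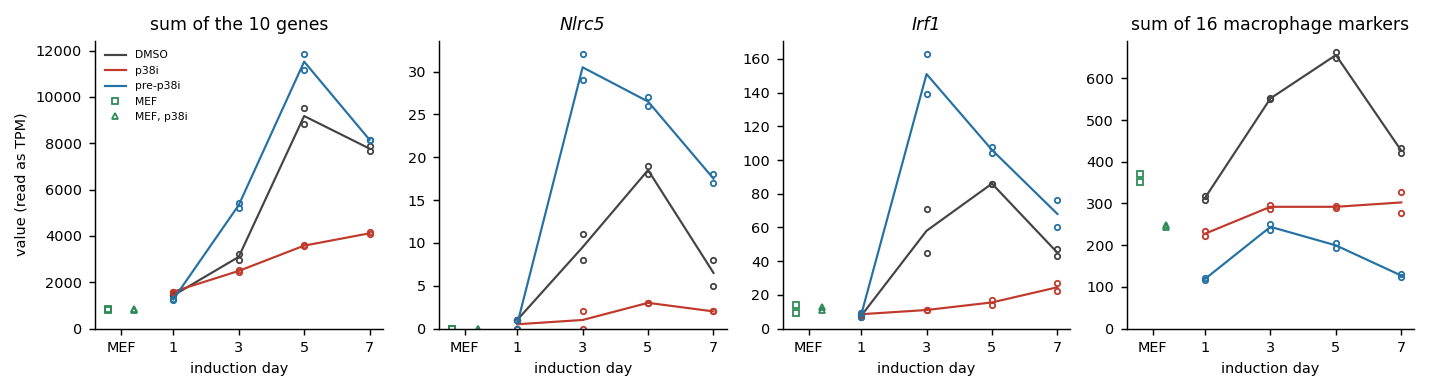
Sum of the 10 class I presentation genes, level of the class I transactivator gene Nlrc5, level of Irf1 and sum of 16 macrophage markers, as values read as TPM. Points are libraries and lines join group means over induction days, with MEFs at the left. On day 5 pre-p38i had the highest sum of the 10 genes (11521) and the lowest sum of macrophage markers (199.5), and on days 3 to 7 p38i was below DMSO in all 4 panels.

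Over the 14 group means, each of the 10 genes followed the mean of the other 9 closely, with Pearson's r from 0.921 (H2-Q6) to 0.994 (H2-Q4), as a description in which the points share libraries and time courses. Outside the 10, among 10658 genes whose mean was 5 or more, the most similar courses were those of Ly6e (r = 0.989), Abo (0.988), H2-T22 (0.986), Btla (0.981), Ido2 (0.981), Ube2l6 (0.980), Fzd6 (0.980) and Oas1g (0.979). Genes lying between the class I genes on chromosome 17 gave another comparison. The 64 other tested genes from 33996017 to 36032855 that are no H2 genes had median differences between -0.13 and 0.13 in the 13 comparisons with DMSO, MEF or the preceding day. In p38i on day 5, 4 of the 64 were called higher and 14 lower, against 1041 and 2473 of the 13230 genes tested. From MEF to day 1 of DMSO, 23 were called higher and 14 lower, against 4840 and 2500 of the 13230.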

How the data were processed

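The authors deposited 1 score per gene and library, a whole number, for 50600 genes in 28 libraries. Its totals are those of TPM rounded down, so it was read as TPM, scaled by library size and transcript length; this is inferred from the values. The submitters' processing notes name bcl2fastq, Bowtie2 2.2.5 and RSEM 1.3.0, and the builds mm10 and hg38, without saying what each was used for. RSEM shares out reads that fit several genes, which matters for the H2 genes. The library kit, the way RNA was extracted and the MEF medium are given differently in the labels and in the study's methods. The depth of each library is unknown, so no counting interval was computed.

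Groups were taken from the sample labels. Whether the 2 libraries of a group came from separate cultures is not given in the sources used here, so the p-values measure only the spread between these libraries. All 28 libraries entered 1 model in limma 3.58.1 (R 4.3.3), fitted with lmFit and trended eBayes to log2(value + 1) of the 13230 genes that averaged 1 or more. Benjamini-Hochberg adjustment ran over all of them, and adjusted p-values under 0.05 were called. Differences on this scale understate the change of low genes. An exact permutation test of a gene in 2 against 2 libraries cannot go under p = 0.333. Tested on simulated data for p38i-treated against untreated MEFs, with 200 changed genes among 13230, the scripts recovered 171 and 2.84% of the calls were unchanged genes. The 10 genes and the gene lists were chosen with earlier results of these data known. The genes named are the 10 in full, the highest, the largest riser or the largest faller of each list, the defining markers of each cell type list (Ptprc, Csf1r, Lyz2, Cd3e, Ncr1, Pecam1, Cdh5, Col1a1, Pdgfrb and Nanog), and the 8 genes with the most similar course. Partners of a named gene (A930015D03Rik, Psmb5, Psmb6 and Psmb7) are named beside it. Tapbp, Irf1, Ifnb1, Ifng and Ciita were named after their values were seen. A gene that meets the rule is not reported here.

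GENCODE M21 (GRCm38) holds 99.56% of the identifiers, 92.5% at an equal position, 8 of the 10 among these. H2-K1 and Psmb9 differ slightly at an end. Transcripts of that annotation were aligned with BLAST 2.17.0+ and cut into windows of 75 bases, and promoter windows (250 bases before to 50 after a start) are RefSeq's for GRCm38.p6. Plots were drawn with matplotlib 3.10.9. The alternatives were leaving out each library, the summed heavy chain genes, quantile normalization, a block for the replicate number, fits restricted to the compared groups, a pseudocount of 0.1, and a filter at a mean of 5 or none.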

Additional observations from a re-analysis of the deposited data

Results flagged for a closer look

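The effects of the inhibitor arms against DMSO on day 1 differed from each other by their own test for 3 of the 10 genes. The difference, p38i minus pre-p38i on the log2 scale, was 0.41 for H2-K1 (adjusted p = 0.00023, limma), 0.31 for H2-D1 (adjusted p = 0.000386, limma) and 0.35 for B2m (adjusted p = 4.85e-06, limma). These are 3 genes higher and 0 lower of 10, against 8.25% and 19.9% of all genes tested. In a fit of these groups alone the calls of H2-K1 (adjusted p = 0.0733, limma) and H2-D1 (adjusted p = 0.0677, limma) were lost.

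The effect of the inhibitor in MEFs also differed from its effect on day 1 of induction. The effect in MEFs minus that on day 1 was -0.57 for H2-K1 (adjusted p = 0.000681, limma), -0.33 for H2-D1 (adjusted p = 0.00957, limma) and 0.87 for Tap1 (adjusted p = 0.0205, limma). These are 2 genes lower and 1 higher of 10, against 3.47% and 10.8% of all genes tested. The Tap1 call was lost with quantile normalization (adjusted p = 0.0912, limma) and without any one of 4 libraries, the first DMSO library of day 1, the second p38i library of day 1 and the second library of each MEF group (adjusted p from 0.0786 to 0.123, limma). With the summed heavy chains in place of H2-K1 and H2-D1, the difference was -0.23 (adjusted p = 0.0599, limma).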

How the results depend on the processing

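The whole-number values limit what can be said of genes below about 5, and no depth is known. Over single genes and comparisons, the alternatives kept the presence or absence of a call 1472 times. They lost a call 113 times, gained one 25 times and turned the direction 5 times where either fit had a call. The 1472 include changes of sign that were called in neither fit. A fit of only the groups compared, which has fewer libraries to estimate the spread, called fewer of the 10 genes: 5 from day 3 to 5 of DMSO and 2 from day 5 to 7, 1, 5 and 1 for p38i on day 1, p38i on day 3 and p38i against pre-p38i on day 1, and 1, 3, 2 and 5 for pre-p38i on days 1, 3, 5 and 7. Leaving out 1 library gave counts from 10 to 10 for the DMSO steps of days 1 to 3 and 3 to 5, for p38i on days 5 and 7 and for pre-p38i on day 3, from 8 to 10 for p38i on day 3, 5 to 6 from MEF to day 1, 4 to 6 from day 5 to 7, 3 to 4 for p38i in MEFs, 1 to 3 for p38i on day 1, 1 to 2 for pre-p38i on day 1, 5 to 7 on day 5, 5 to 5 on day 7, 3 to 5 for p38i against pre-p38i on day 1 and 2 to 4 for the effect in MEFs against that on day 1. The count of p38i on day 1 was 1 without the first DMSO library and 2 without either p38i library. That of pre-p38i on day 1 was 1 without either DMSO library or the second pre-p38i library. That of p38i against pre-p38i on day 1 was 5 without the second p38i or the first pre-p38i library.

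Quantile normalization turned B2m from day 5 to 7 of DMSO to 0.11. It moved the median of all genes from 0.14 to -0.07 between MEF and day 1, and the share of calls that were higher from 65.9% to 47.5% there, from 71.3% to 50.8% from day 3 to 5, from 21.6%, 24.4% and 29.6% to 41.1%, 50% and 52.7% for p38i on days 1, 3 and 5, and from 66.7% to 50.7% for pre-p38i on day 3. The summed heavy chains replace each of them by 1 common value. Where either fit had a call, this turned the sign of H2-Q4 in pre-p38i (-0.26) and of H2-T23 in p38i (0.048) on day 1. It also turned the sign of H2-Q4 and H2-T23 for p38i against pre-p38i on day 1 (0.31 each).

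Replicate numbers did not pair the libraries: over 91 pairs of groups the deviations of same-numbered libraries correlated between -0.08 and 0.09. With the replicate number as a block, 5 of the 10 genes were called from MEF to day 1, 10 from day 1 to 3 and 10 from day 3 to 5 of DMSO, 5 from day 5 to 7, 3 for p38i in MEFs, and 3, 10, 10 and 10 for p38i and 2, 10, 7 and 7 for pre-p38i on days 1, 3, 5 and 7.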
